A study of Mus musculus with 32 samples.

Results

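Type I interferon-stimulated genes were followed in tumours grown from KPC36, a mouse line used in a model of pancreatic ductal adenocarcinoma. The set held 32 genes, chosen by symbol, of the 55103 gene rows in the table of estimated counts. All 32 symbols were found, each passed the filter on low counts, and each was among the 20474 genes tested. The study compared 4 groups of 8 bulk RNA-seq libraries: tumours treated with carbon ions (carbon_treated), untreated tumours of the carbon-ion arm (carbon_ctrl), tumours treated with photons (photon_treated) and untreated tumours of the photon arm (photon_ctrl). All tumours came from this 1 line. The labels used here give no host strain, radiation dose, animal age or genotype of the line. Tumours were taken on day 4 or day 7, but no label gives the day of a library, so it entered no comparison. The comparisons asked how each beam moved these genes against the untreated tumours of its own arm, and whether the beams differed. The genes were grouped by role: IFIT proteins, the ISG15 system, oligoadenylate synthetases, other antiviral effectors, RNA and nucleic acid sensors, transcription factors and a remaining group.

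Type I interferons are secreted proteins that bind the receptor IFNAR1/IFNAR2 on the same or a neighbouring cell. The kinases JAK1 and TYK2 then phosphorylate STAT proteins, which join IRF9 to form the factor ISGF3. ISGF3 binds the interferon-stimulated response element (ISRE) in target promoters and raises genes whose products block viral RNA, protein synthesis and virus release. In irradiated tumours this pathway is known as a link between damaged DNA, which can be sensed in the cytosol by cGAS and STING, and the recruitment of dendritic cells and T cells. Tumour cells, macrophages and dendritic cells can all express these genes.

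The ISRE, the element through which ISGF3 acts, was looked for in the promoters. RefSeq promoter windows of assembly GRCm38.p6, from 250 bases before to 50 bases after the start site, were found for 24 of the 32 genes; Mx1, Mx2, Oas2, Usp18, Dhx58, Zbp1, Rtp4 and Parp14 had no entry. The ISRE core, read as GAAA, any 2 bases and GAAA on either strand with overlapping matches counted, was present in 13 of the 24 (54.2%) and, counted in the same way per gene, in 3.99% of all 27025 genes with such windows. The core of the interferon gamma activated site, TTCNNNGAA, was in 6 of the 24 (25%) and in 9.55% of all such genes. Of the 9 members with a window that passed the test for the mean of both beams, described further on, 6 held the ISRE core; of the 15 that did not pass, 7 did. A match describes these letters and is not evidence of binding. The 6 genes that both rose and held the core are shown, so that the element can be read where the expression changed, with the 200 bases before the start site, 5′ to 3′ on the strand of the gene, with matches to the core on either strand in capitals. The windows are chr4:156200819-156201018 (minus strand) for Isg15, chr19:34640689-34640888 (plus) for Ifit1, chr19:34583329-34583528 (plus) for Ifit3, chr19:34607757-34607956 (plus) for Ifit3b, chr12:26456453-26456652 (minus) for Rsad2 and chr8:71537473-71537672 (minus) for Bst2.
Isg15: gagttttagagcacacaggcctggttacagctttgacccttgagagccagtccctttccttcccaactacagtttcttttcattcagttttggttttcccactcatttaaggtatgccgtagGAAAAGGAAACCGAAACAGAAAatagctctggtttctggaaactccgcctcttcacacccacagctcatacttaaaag
Ifit1: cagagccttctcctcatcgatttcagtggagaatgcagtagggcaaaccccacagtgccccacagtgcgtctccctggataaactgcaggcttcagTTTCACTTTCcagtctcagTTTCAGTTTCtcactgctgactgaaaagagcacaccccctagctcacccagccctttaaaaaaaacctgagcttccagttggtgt
Ifit3: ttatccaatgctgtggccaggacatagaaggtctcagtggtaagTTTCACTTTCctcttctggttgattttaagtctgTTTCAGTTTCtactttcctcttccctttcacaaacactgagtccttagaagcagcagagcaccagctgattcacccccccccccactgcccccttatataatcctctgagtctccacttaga
Ifit3b: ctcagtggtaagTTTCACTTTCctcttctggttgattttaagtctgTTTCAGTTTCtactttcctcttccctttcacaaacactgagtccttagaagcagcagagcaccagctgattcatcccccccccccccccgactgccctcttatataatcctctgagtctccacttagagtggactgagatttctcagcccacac
Rsad2: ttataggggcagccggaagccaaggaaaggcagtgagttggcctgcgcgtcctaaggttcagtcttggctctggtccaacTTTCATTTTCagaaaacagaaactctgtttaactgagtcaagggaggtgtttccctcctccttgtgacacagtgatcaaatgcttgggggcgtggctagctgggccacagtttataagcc
Bst2: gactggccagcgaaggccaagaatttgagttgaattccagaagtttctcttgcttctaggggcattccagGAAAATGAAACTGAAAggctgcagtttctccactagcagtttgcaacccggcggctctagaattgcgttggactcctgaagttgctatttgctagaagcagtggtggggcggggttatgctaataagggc
In Isg15 overlapping matches began 78, 72 and 66 bases before the start site, and in Bst2 the first of 2 overlapping matches began at 130. Ifit1 had matches at 104 and 85 bases, Ifit3 at 156 and 122, and Ifit3b at 188 and 154. The windows of Ifit3 and Ifit3b carry the same capital blocks in the same order, and the genes are near-identical copies. Rsad2 had 1 match, 120 bases before its start. Matches at 20 bases or fewer before a start site were in Oas1a, at 20 and 14 bases, Oas1g, at 18 and 12, and Ddx60, at 19. Irf7, Xaf1 and Ifi44, which also rose, had no match of these letters in their windows.

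Library totals ran from 13891863 estimated counts in photon_treated replicate 3 to 71645903 in carbon_treated replicate 7. Levels are given as CPM, counts relative to the scaled library total. Markers of the labelled carcinoma were present: 7 epithelial genes summed to between 2394 and 5362 CPM in every library. The pieces also held stroma: 7 fibroblast markers summed to between 5451 and 26771 CPM, and 7 macrophage markers to between 311 and 873 CPM. The values are estimated counts with no whole number among those above 0, so 1 unit need not be 1 read. In bulk samples, fewer cells of a type and less RNA per cell cannot be told apart. The labels do not say that replicates are separate animals, so p-values measure the spread between these libraries. The titles of 4 controls and 3 irradiated libraries of the carbon-ion arm start with D and all others with M, with no stated meaning. Title numbers reach 48 in the photon controls and begin at 95 after photons, so whatever these numbers stand for and the photon treatment cannot be told apart.

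After carbon ions all 32 genes had a positive log2 fold change against the untreated tumours of that arm, with a median of 1.18, against 51.5% of all genes tested and a median of 0.01. Of the 32, 22 lay above 1 on the log2 scale, where 0.611% of all genes did. None passed the threshold of an adjusted p under 0.05 in edgeR's quasi-likelihood test, in which 0% of all genes passed; 29 of the 32 had an unadjusted p under 0.05 in this direction, against 3.68% of all genes. Without carbon_treated replicate 8 the number at this unadjusted p was 22 and the median of the 32 genes was 0.90. The DESeq2 Wald test called 5 members (Ifit3, Ifit3b, Isg15, Usp18 and Xaf1) among 17 genes in all, 0.0983% of those it gave an adjusted p. The largest changes were in Ifit3b (2.34 ± 0.55, SE), Ifit3 (2.26 ± 0.51), Oas3 (2.11 ± 0.58) and Ifit1 (2.06 ± 0.53), and the smallest in Eif2ak2 (0.17 ± 0.10). Smallest in p were Xaf1 and Isg15, both with an edgeR adjusted p of 0.208.

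After photons 30 of the 32 genes had a positive log2 fold change, against 49.9% of all genes, and the median was 0.45. Usp18, a protease that removes ISG15 from proteins and damps the receptor, was the 1 member that passed, with an edgeR adjusted p of 0.041; 1.71% of all genes passed in the higher direction. DESeq2 called 6 (Ifit3, Ifit3b, Mx2, Oasl1, Usp18 and Bst2) among 1524 genes, 7.74% of those with an adjusted p. At an unadjusted p under 0.05, 13 members were higher, against 8.87% of all genes. Without photon_treated replicate 4 that number was 6, 26 genes were positive and the median was 0.25. Oas2 (-0.32 ± 0.52) and Trim30a (-0.40 ± 0.26) were the 2 with negative values, and neither passed.

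The mean of both effects, which weighs the arms equally and keeps each beam against its own controls, called 12 members, all higher: Ifit1, Ifit3, Ifit3b, Isg15, Usp18, Rsad2, Mx2, Bst2, Irf7, Xaf1, Ifi44 and Rtp4. By the same edgeR test 0.44% of all genes were called in that direction, 90 in all. The median of the 32 log2 fold changes was 0.82, against 0.01 for all genes, and 28 members had an unadjusted p under 0.05 in this direction, against 6.41% of all genes. Isg20, at an adjusted p of 0.0505, and Oasl2, at 0.0571, lay just above the threshold. DESeq2 called 18 members, the 12 with Ifit2, Oas3, Oasl1, Oasl2, Stat2 and Isg20, among 468 genes, 2.29% of all. Isg20 was also called by edgeR with DESeq2 size factors and with upper-quartile scaling, and Oasl2 with the former. With the title letter as a covariate edgeR called 10 members and 98 genes. With the M-titled libraries alone, 0 members and 9 genes over the whole table passed, while all 32 members were positive, 26 had an unadjusted p under 0.05 in this direction and the smallest edgeR adjusted p of a member was 0.0554.

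**Figure D1:**
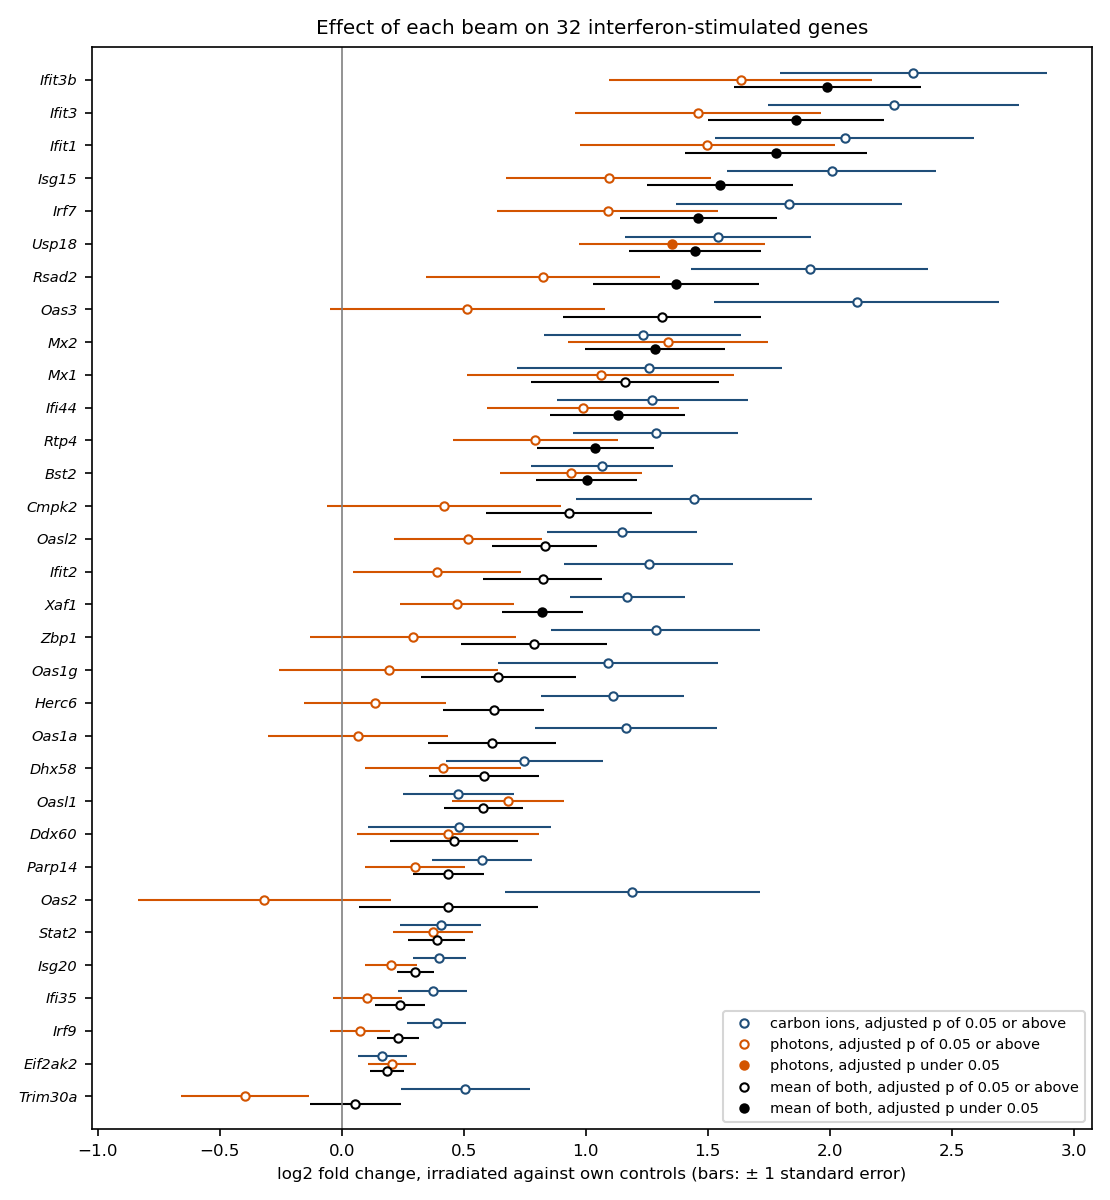
Log2 fold change of each of the 32 genes after carbon ions, after photons and as the mean of both, each against the untreated tumours of the same arm; points are edgeR estimates, bars are 1 standard error, and filled points have an adjusted p under 0.05. The carbon-ion points run from 0.17 to 2.34 and the photon points from -0.40 to 1.64, with filled points for 12 genes in the mean of both and for Usp18 after photons.

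The IFIT proteins bind viral RNA that lacks the cap of host messengers and block its translation. Their genes lie side by side on chromosome 19, and 3 of the 4 rose in the mean of both effects. Ifit3b levels were 0.543 to 1.98 (median 0.842) CPM in untreated tumours of the carbon-ion arm and 0.901 to 10.2 (median 4.01) CPM after carbon ions. In the photon arm it ran from 0.306 to 1.75 (median 0.96) and, after photons, from 0.36 to 9.63 (median 2.52). All 8 carbon-ion irradiated libraries lay above the control median, as for 8 of the 32 genes and 1.22% of all genes, and 5 above the highest control; after photons 5 lay above the highest control while the others overlapped it. The log2 fold changes were 2.34 ± 0.55 after carbon ions and 1.64 ± 0.54 after photons, and the mean was 1.99 ± 0.38, or 3.97-fold (95% interval 2.31 to 6.81), with an edgeR adjusted p of 0.0102.

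Ifit3 ran from 1.17 to 4.84 (median 2.43) CPM in untreated tumours of the carbon-ion arm and from 1.77 to 31.7 (median 9.78) after carbon ions. It ran from 1.58 to 5.9 (median 1.98) in the photon controls and from 1.18 to 22.8 (median 6.64) after photons. Above the highest control of their arm were 6 carbon-ion and 5 photon libraries. Its mean log2 fold change of 1.86 ± 0.36 had an edgeR adjusted p of 0.0103. Ifit1, the cap sensor of the family, had ranges of 1.69 to 7.37 (median 3.22) and 2.06 to 34.9 (median 10.9) CPM in the carbon-ion arm, controls first, and of 1.25 to 9.42 (median 2.47) and 1.91 to 26.2 (median 8.03) CPM in the photon arm. The groups overlapped in both arms, with 4 and 3 irradiated libraries above every control. Its mean change was 1.78 ± 0.37, with an edgeR adjusted p of 0.0166. Ifit2 did not pass by edgeR and was called by DESeq2 in the mean of both: its ranges were 3.29 to 8.85 (median 4.57) and 3.68 to 32.4 (median 10.1) CPM in the carbon-ion arm and 4.06 to 10.8 (median 6.47) and 3.3 to 17 (median 8.55) CPM in the photon arm, controls first, for log2 fold changes of 1.26 ± 0.35 and 0.39 ± 0.34. Without photon_treated replicate 4 the photon value was 0.18 for Ifit2 and 0.95 for Ifit3, from 1.46. Without carbon_treated replicate 8 the carbon-ion value was 0.89 for Ifit2 and 1.88 for Ifit3, from 2.26. Because Ifit3 and Ifit3b share most of their sequence, the split of reads between them is uncertain; their ratio of counts ranged from 1.63 to 5.75 over all libraries, with group medians between 2.42 and 3.21.

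ISG15 is a ubiquitin-like protein that is attached to other proteins by a chain of enzymes ending in the ligase HERC6 in mice, and is removed by USP18. Isg15 and Usp18 rose in the mean of both effects, and Herc6 did not pass. Isg15 ran from 0.887 to 2.11 (median 1.48) CPM in untreated tumours of the carbon-ion arm and from 1.91 to 14.2 (median 5.33) after carbon ions, with 7 of 8 irradiated libraries above the highest control and all 8 above the control median. In the photon arm it ran from 0.633 to 4.24 (median 1.45) in the controls and from 0.704 to 10.9 (median 3.26) after photons, with 2 above the highest control. Its log2 fold changes were 2.01 ± 0.43 and 1.09 ± 0.42, with edgeR adjusted p values of 0.208 and 0.124. The carbon-ion value was 1.70 without carbon_treated replicate 8, and the photon value was 0.64 without photon_treated replicate 4. The mean of 1.55 ± 0.30 had an adjusted p of 0.0103.

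Usp18, on chromosome 6, was the 1 member called in a single beam by edgeR. Its ranges were 1.57 to 4.59 (median 3.24) CPM in the carbon-ion controls and 2.78 to 18 (median 8.43) after carbon ions, then 1.52 to 4.31 (median 2.32) in the photon controls and 1.54 to 15.9 (median 6.22) after photons. In the irradiated groups, 7 carbon-ion and 5 photon libraries exceeded every control of their arm. The log2 fold change was 1.54 ± 0.38 after carbon ions and 1.35 ± 0.38 after photons, with edgeR adjusted p values of 0.333 and 0.041; the latter was 0.0579 with the M-titled libraries alone. It lay between 0.0526 and 0.0899 without any 1 of photon_ctrl replicates 1, 3, 5, 6, 7 and 8 or photon_treated replicates 4, 5, 7 and 8, and under 0.05 without any other single library. The mean of 1.45 ± 0.27 had the smallest adjusted p of the 32 genes, 0.00762, and exons of Usp18 overlap Gm44148 on the other strand. Herc6 ran from 2.34 to 6.42 (median 3.71) CPM in untreated tumours of the carbon-ion arm and from 3.39 to 15.4 (median 8.2) after carbon ions, with 5 libraries above the highest control. After photons it ran from 3.09 to 10.1 (median 5.32) CPM, almost the range of its controls, 3.64 to 9.4 (median 4.7). Its log2 fold changes were 1.11 ± 0.29 (0.93 without carbon_treated replicate 8) and 0.13 ± 0.29. The photon value lay between -0.016 (without photon_treated replicate 4) and 0.30 (without photon_ctrl replicate 3). Herc6 overlaps exons of Gm45193.

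The oligoadenylate synthetases answer double-stranded RNA by making short adenylate chains that switch on RNase L; of the related mouse OASL proteins, OASL2 keeps this activity and OASL1 lacks it. None of the 6 passed in any comparison by edgeR fitted to all 32 libraries with TMM scaling, while DESeq2 called Oas3, Oasl1 and Oasl2 in the mean of both effects and Oasl1 after photons and between the controls, where it called 2.29%, 7.74% and 11.6% of the genes with an adjusted p. Among the edgeR fits that left 1 library out, some called Oasl2 in the mean of both, and Oasl1 there, after photons or between the controls. With edgeR 5 of the 6 carbon-ion log2 fold changes lay above 1, against 0.611% of all genes. At an unadjusted p under 0.05 all 6 were higher after carbon ions (3.68% of all genes were), 1 (Oasl1) after photons (8.87%) and 4 (Oas1a, Oas3, Oasl1 and Oasl2) in the mean of both (6.41%). Oas3 had the largest carbon-ion value of the family, 2.11 ± 0.58, beside 0.51 ± 0.56 after photons; its carbon-ion irradiated libraries spread from 0.673 to 26.4 (median 6.69) CPM. Oas1a had values of 1.17 ± 0.37 and 0.07 ± 0.37, and Oas1g of 1.09 ± 0.45 and 0.19 ± 0.45. These copies are near-identical too, and the count ratio of Oas1a to Oas1g ranged from 1.29 to 7.83.

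Oas2 had opposite signs after the beams. It ran from 1.66 to 8.7 (median 3.51) CPM in untreated tumours of the carbon-ion arm and from 1.31 to 28.9 (median 6.64) after carbon ions, with 4 libraries above every control. In the photon arm the controls, from 2.8 to 17.2 (median 3.3), reached higher than the irradiated libraries, from 0.824 to 9.71 (median 3.82). The photon control at 17.2 CPM was replicate 3, and the next highest control was at 6.21 CPM. The log2 fold changes were 1.19 ± 0.52 and -0.32 ± 0.52, and neither passed. The photon value was 0.22 without that control, and the carbon-ion value was 0.61 without carbon_treated replicate 8. Oasl2 ran from 9.05 to 17.6 (median 15.9) CPM in untreated tumours of the carbon-ion arm and from 13.5 to 68 (median 28.5) after carbon ions, with 6 libraries above every control, while its photon ranges of 10.9 to 31.4 (median 17.5) and 10.1 to 52.6 (median 23.1) overlapped, with 2 irradiated libraries above every control and 1 below the lowest. Its changes were 1.15 ± 0.31 (0.90 without carbon_treated replicate 8) and 0.52 ± 0.30 (0.30 without photon_treated replicate 4). The mean of 0.83 ± 0.22 had an edgeR adjusted p of 0.0571. Oasl1, which restrains translation of Irf7, was the member whose controls differed most: 13 to 27.3 (median 22.6) CPM in the carbon-ion arm and 7.44 to 27.9 (median 12) in the photon arm, a difference of 0.67 ± 0.23 (edgeR adjusted p 0.0611). After irradiation it ran from 17 to 38.5 (median 30.3) and from 11.3 to 35.7 (median 20.7) CPM, for effects of 0.48 ± 0.23 and 0.68 ± 0.23. Exons of Oasl1 overlap Gm13822 on the other strand.

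Among the other antiviral effectors, Bst2, Mx2 and Rsad2 rose in the mean of both effects and Mx1, Cmpk2 and Isg20 did not pass by edgeR as fitted here. Bst2 encodes tetherin, which holds budding virus at the cell surface. It was the 1 member whose carbon-ion groups did not overlap, where 0.0195% of all genes, 4 in number, were higher without overlap: the controls ran from 6.33 to 10.8 (median 8.84) CPM and the irradiated libraries from 11.1 to 27.7 (median 16.3). The photon arm overlapped, with controls from 3.75 to 11.5 (median 7.2) and irradiated libraries from 5.42 to 32.9 (median 11.1) CPM. The log2 fold changes were 1.07 ± 0.29 and 0.94 ± 0.29, and the mean of 1.0 ± 0.21, or 2-fold (95% interval 1.5 to 2.68), had an edgeR adjusted p of 0.0148. Per kilobase of transcript, Bst2 and Isg20 had the 2 highest mean levels of the 32 in both irradiated groups, 22.96 and 19.97 CPM per kilobase after carbon ions and 17.8 and 17.5 after photons. The order within this pair was not tested, and the photon mean of Bst2 includes photon_treated replicate 4 at 32.9 CPM. Isg20 had the highest mean in both control groups, 15.1 and 15.2 CPM per kilobase. The length used was that of the longest annotated transcript of each gene. Whether the deposited values were already scaled by length is not known, so these ranks are uncertain.

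Mx2, a dynamin-like GTPase annotated in the mouse as a polymorphic pseudogene, had log2 fold changes of 1.34 ± 0.41 after photons and 1.23 ± 0.40 after carbon ions, and the carbon-ion minus photon difference was -0.10 ± 0.57. Its levels were 0.794 to 1.85 (median 1.5) CPM in the carbon-ion controls, 0.794 to 7.82 (median 2.92) after carbon ions, 0.591 to 2.53 (median 0.84) in the photon controls and 0.515 to 5.33 (median 2.77) after photons. Above every control of the arm lay 6 carbon-ion and 4 photon libraries, and 1 library of each irradiated group lay under the lowest control. The mean of 1.28 ± 0.29 had an edgeR adjusted p of 0.0278, which lay between 0.0509 and 0.0533 without carbon_treated replicate 1 or photon_ctrl replicate 8. Rsad2 encodes viperin, which makes a chain-terminating nucleotide, and lies on chromosome 12 beside Cmpk2, the kinase that supplies its substrate. Rsad2 ran from 0.828 to 5.22 (median 2.32) CPM in untreated tumours of the carbon-ion arm and from 1.8 to 25.9 (median 6.46) after carbon ions, and from 1.04 to 6.11 (median 2.11) in the photon controls and from 1.08 to 9.08 (median 5.1) after photons. In the carbon-ion arm 4 irradiated libraries lay above every control, and in the photon arm 1 did. Its changes were 1.92 ± 0.49 and 0.82 ± 0.48, and the mean of 1.37 ± 0.34 had an edgeR adjusted p of 0.0461. That p ranged from 0.0233 to 0.0820 when each of the 32 libraries was left out in turn, and was under 0.05 in 11 of those fits. Cmpk2 ran from 0.817 to 3.52 (median 1.13) and 1.22 to 11.9 (median 3.76) CPM in the carbon-ion arm and from 0.845 to 3.52 (median 1.55) and 0.463 to 5.33 (median 2.1) CPM in the photon arm, controls first, for changes of 1.44 ± 0.48 and 0.42 ± 0.48. The carbon-ion value of Cmpk2 was 1.08 without carbon_treated replicate 8. The photon value of Cmpk2 was 0.081 without photon_treated replicate 4 and 0.70 without photon_ctrl replicate 3.

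Isg20, an exonuclease that digests RNA, had narrow ranges: it ran from 14.4 to 20.4 (median 16.1) CPM in the carbon-ion controls, 15.6 to 29.2 (median 21.9) after carbon ions, 13.5 to 21.3 (median 16.8) in the photon controls and 15.9 to 21.3 (median 19.2) after photons. Its changes were 0.40 ± 0.11 and 0.20 ± 0.11, and the mean of 0.30 ± 0.08 had an edgeR adjusted p of 0.0505. Mx1, the influenza restriction factor of mice, had changes of 1.26 ± 0.54 and 1.06 ± 0.55 that did not pass.

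**Figure D2:**
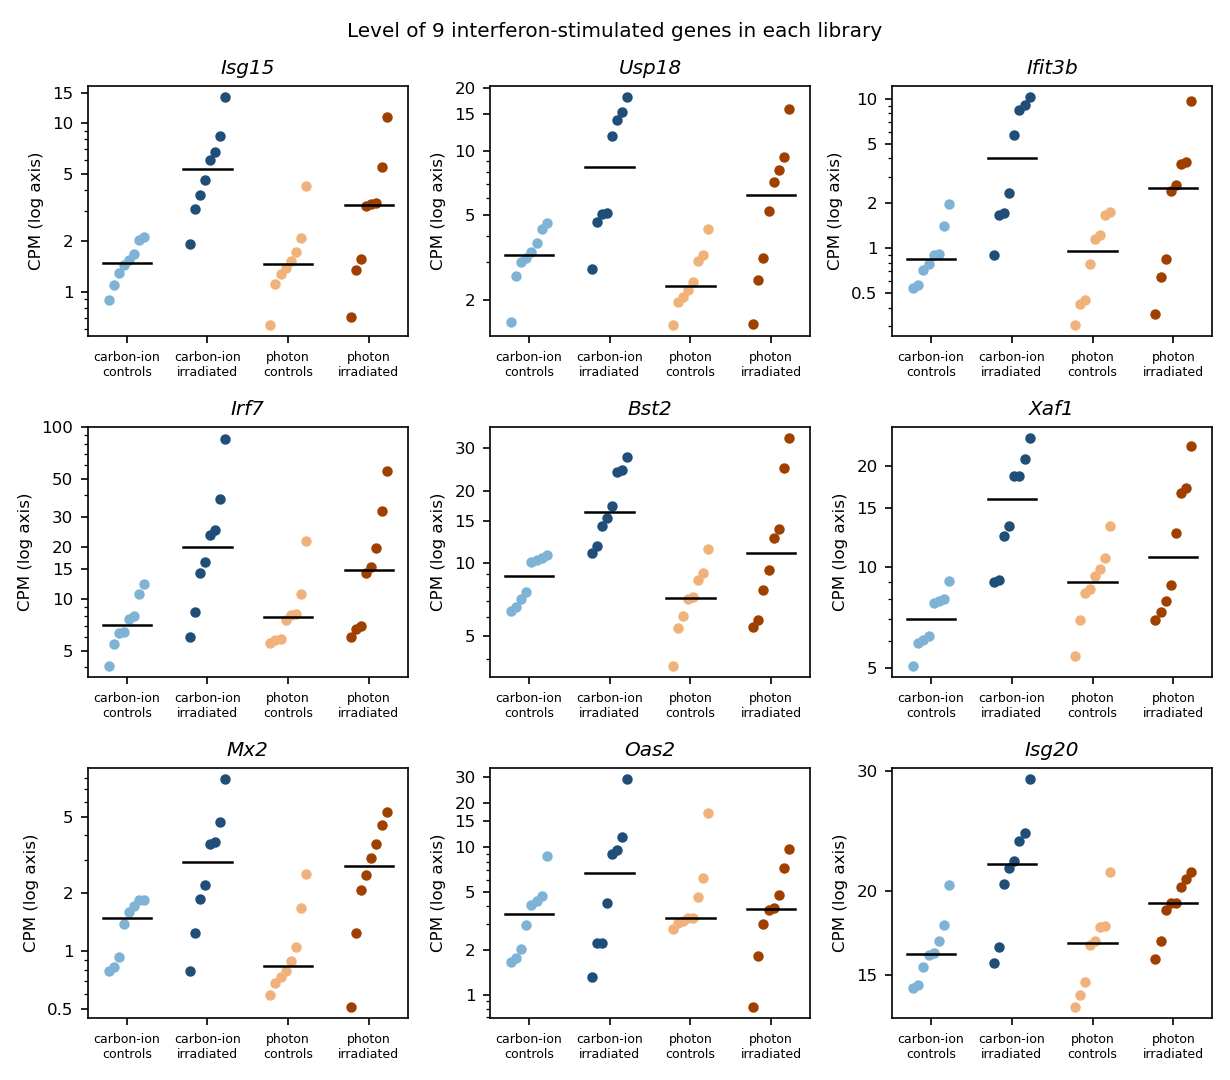
Level of 9 of the genes in each of the 32 libraries, in CPM on log axes, ordered by value within a group; lines are group medians. Bst2 separates the carbon-ion groups, the photon-irradiated libraries of Isg15 and Irf7 overlap their controls at the low end, and 1 photon control of Oas2 lies at 17.2 CPM.

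The sensors of RNA and nucleic acids in the set did not pass in any of the 3 tests of irradiation by edgeR or DESeq2. Eif2ak2 encodes PKR, which halts translation on double-stranded RNA. It ran from 36.1 to 48.4 (median 43.5) CPM in the carbon-ion controls, 36.3 to 60.4 (median 49.9) after carbon ions, 39.7 to 47 (median 41.8) in the photon controls and 36.4 to 61.3 (median 49.2) after photons. Its changes of 0.17 ± 0.10 and 0.21 ± 0.10 lay near 0, although 6 of the 8 photon-irradiated libraries exceeded every control. Ddx60, a helicase linked to RIG-I signalling, had log2 fold changes of 0.48 ± 0.37 (0.30 without carbon_treated replicate 8) and 0.44 ± 0.37 (0.18 without photon_treated replicate 4); its ranges were 2.45 to 7.86 (median 5.35) and 1.94 to 13.3 (median 7.28) CPM in the carbon-ion arm and 2.22 to 7.9 (median 5.2) and 2.16 to 15.3 (median 6.95) CPM in the photon arm. Zbp1, a sensor of Z-form nucleic acid that can start necroptosis, had values of 1.29 ± 0.43 after carbon ions and 0.29 ± 0.42 after photons, and Dhx58, the RIG-I relative LGP2, of 0.75 ± 0.32 and 0.42 ± 0.32.

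Of the transcription factors, Irf7 rose in the mean of both effects and Irf9 and Stat2, parts of ISGF3, did not pass by edgeR; DESeq2 called Stat2. IRF7 drives the alpha interferon genes and is itself induced by interferon. It ran from 4.08 to 12.2 (median 7.03) CPM in untreated tumours of the carbon-ion arm and from 6.03 to 85.6 (median 20.04) after carbon ions, with 6 libraries above every control. In the photon arm it ran from 5.54 to 21.8 (median 7.84) in the controls and from 6 to 55.2 (median 14.8) after photons, with 2 above every control. Its changes were 1.83 ± 0.46 and 1.09 ± 0.45 (0.67 without photon_treated replicate 4), and the mean of 1.46 ± 0.32, or 2.75-fold (95% interval 1.75 to 4.34), had an edgeR adjusted p of 0.0254. Exons of Irf7 overlap Phrf1 on the other strand. Irf9, whose exons overlap Rnf31 on the same strand, ran from 16.8 to 30.3 (median 23.1) CPM in the carbon-ion controls, 25.1 to 35.3 (median 29.2) after carbon ions, 21.9 to 33.3 (median 25.7) in the photon controls and 20.6 to 36.4 (median 26.8) after photons. All 8 carbon-ion irradiated libraries lay above the control median, and the change was 0.39 ± 0.12, against 0.07 ± 0.12 after photons, a value that lay between 0.023 and 0.14 with 1 library left out. In the carbon-ion controls minus the photon controls Irf9 was at -0.25 ± 0.12, with an unadjusted p of 0.0467 and an edgeR adjusted p of 0.208. Stat2 had values of 0.41 ± 0.17 and 0.37 ± 0.17.

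In the remaining group Xaf1, Ifi44 and Rtp4 rose in the mean of both effects. Xaf1, an antagonist of the apoptosis inhibitor XIAP, ran from 5.06 to 9.05 (median 7.01) CPM in untreated tumours of the carbon-ion arm and from 8.98 to 24.2 (median 16) after carbon ions, with 7 of 8 libraries above every control. In the photon arm it ran from 5.43 to 13.2 (median 8.98) and, after photons, from 6.95 to 22.9 (median 10.7), with 3 above. Its changes were 1.17 ± 0.24 (1.06 without carbon_treated replicate 8) and 0.47 ± 0.23 (0.30 without photon_treated replicate 4). The mean of 0.82 ± 0.17 had an edgeR adjusted p of 0.0134. The carbon-ion adjusted p of 0.208 was 0.0388 without carbon_treated replicate 2 and lay between 0.0530 and 0.554 in the other 31 edgeR fits that left out 1 library. Rtp4, a chaperone of G protein-coupled receptors that is induced by interferon, ran from 3.31 to 7.43 (median 5.7) and 5.98 to 24.3 (median 13.1) CPM in the carbon-ion arm and from 2.61 to 9.4 (median 5.17) and 2.81 to 21.5 (median 9.25) CPM in the photon arm, controls first. Here 7 carbon-ion libraries and 4 photon libraries lay above every control of their arm, and the mean change of 1.04 ± 0.24 had an edgeR adjusted p of 0.0322. With 1 library left out, the carbon-ion value of Rtp4 lay between 1.11 (without carbon_treated replicate 8) and 1.39 (without carbon_treated replicate 7). The photon value of Rtp4 was 0.79, and 0.50 without photon_treated replicate 4. The adjusted p of the mean lay between 0.0506 and 0.0601 without any 1 of carbon_treated replicate 4, photon_ctrl replicates 1, 5 and 8 and photon_treated replicate 8. Exons of Rtp4 overlap Gm45338. Ifi44 had ranges of 1.48 to 4 (median 2.98) and 2.26 to 16 (median 5.65) CPM in the carbon-ion arm and 1.22 to 4.36 (median 2.09) and 1.5 to 12.1 (median 4.21) CPM in the photon arm. Its mean change was 1.13 ± 0.28, with an edgeR adjusted p of 0.0439 that ranged from 0.0244 to 0.0759 over the fits without 1 library and was under 0.05 in 11 of the 32.

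Trim30a, an E3 ligase that restrains signalling from Toll-like receptors, was the member with the smallest mean change, 0.06 ± 0.19, which was -0.08 without carbon_treated replicate 8 and -0.01 without photon_treated replicate 4. It ran from 9.29 to 17.7 (median 13.9) CPM in the carbon-ion controls, 9.47 to 43.3 (median 16.1) after carbon ions, 10.4 to 25.5 (median 15.1) in the photon controls and 6.73 to 19.5 (median 11.5) after photons. Its changes were 0.51 after carbon ions, 0.23 without carbon_treated replicate 8, and -0.40 after photons. After photons 5 of 8 libraries lay at or below the control median, and after carbon ions 4 of 8 lay above every control. Parp14, an ADP-ribosyltransferase, and Ifi35 had values of 0.57 ± 0.20 and 0.37 ± 0.14 after carbon ions and of 0.30 ± 0.20 and 0.11 ± 0.14 after photons, and neither passed.

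Whether the beams differed was tested as the carbon-ion effect minus the photon effect. The difference was positive for 29 of the 32 genes, against 52% of all genes, with a median of 0.60 against 0.02. No member passed by edgeR (0.0781% of all genes did) or by DESeq2 (1.39%), and 5 members, Oas1a, Oas2, Xaf1, Trim30a and Herc6, had an unadjusted p under 0.05, against 7.82% of all genes in that direction. The median was 0.29 without carbon_treated replicate 8 and 0.36 without photon_ctrl replicate 3. The number at that unadjusted p was 0 (24 genes positive) without the former, 1 (25 positive) without photon_ctrl replicate 3 and 13 (31 positive) without photon_treated replicate 4. It was 2 or 3 without any 1 of carbon_ctrl replicates 1, 6, 7 and 8, carbon_treated replicates 1 and 6, photon_ctrl replicate 5 and photon_treated replicates 1, 2, 3, 5 and 6. For Trim30a the difference was 0.90 ± 0.37 (95% interval 0.14 to 1.66, unadjusted p 0.0211, adjusted p 0.302), and for Herc6 0.98 ± 0.41 (0.14 to 1.81). The intervals of genes that rose were wide: -0.29 to 2.12 for Isg15, -0.81 to 2.23 for Ifit3b, -0.89 to 1.27 for Usp18 and -0.71 to 0.96 for Bst2, each including 0.

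The controls of both arms differed at 9.14% of all genes by edgeR and at 0 of the 32 members; at an unadjusted p under 0.05 Oasl1 was higher in the carbon-ion controls (11.8% of all genes were) and Irf9 lower (11.3%), and DESeq2 called 1 member, Oasl1, and 11.6% of all genes. The median of the 32 was -0.09, and 0.08 without photon_ctrl replicate 3. The irradiated groups, which differ by arm as well as by beam, differed at 5.08% of all genes by edgeR and 9.89% by DESeq2, and at 0 members by either. There, 31 of 32 genes were positive for carbon ions against photons, against 51.1% of all genes, with a median of 0.49, which was 0.24 without carbon_treated replicate 8 and 0.78 without photon_treated replicate 4. Rsad2, Oasl1, Cmpk2 and Trim30a had an unadjusted p under 0.05, against 14.9% of all genes in that direction. These 4 became 20 without photon_treated replicate 4, 9 without carbon_treated replicate 7 and 7 without carbon_treated replicate 2. They became 1 without carbon_treated replicate 8 or photon_treated replicate 1 or 6, and 2 without carbon_treated replicate 1, 4 or 6 or photon_treated replicate 3. Cmpk2 had the largest of these values, 1.09 ± 0.48 with an adjusted p of 0.151.

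Much of the spread lay between libraries of the same irradiated group. The mean log2 CPM over the 32 genes ran from 1.81 to 2.91 (median 2.30) in untreated tumours of the carbon-ion arm and from 2.14 to 4.58 (median 3.40) after carbon ions. It ran from 1.93 to 3.28 (median 2.31) in the photon controls and from 1.73 to 4.14 (median 3.01) after photons. In the carbon-ion irradiated group, replicates 8, 1, 6 and 4 lay highest, at 4.58, 4.02, 3.70 and 3.66, and replicates 5, 2 and 7, at 2.82, 2.46 and 2.14, lay within the range of the controls. After photons, replicates 4 and 8, at 4.14 and 3.53, exceeded every control of the arm, replicates 7, 5 and 2 reached 3.19, 3.04 and 2.99, and replicates 3, 1 and 6, at 2.25, 1.82 and 1.73, lay among or below the controls. The SD of this mean was 0.82 after carbon ions and 0.84 after photons, against 0.36 and 0.43 in the controls. Carbon_treated replicate 8 alone held the highest level of the 32 libraries for 23 of the 32 genes, and photon_treated replicate 4 for 5. Of the controls, photon_ctrl replicate 3 was highest, at 3.28, and exceeded the highest carbon-ion control at 21 of 32 genes.

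**Figure D3:**
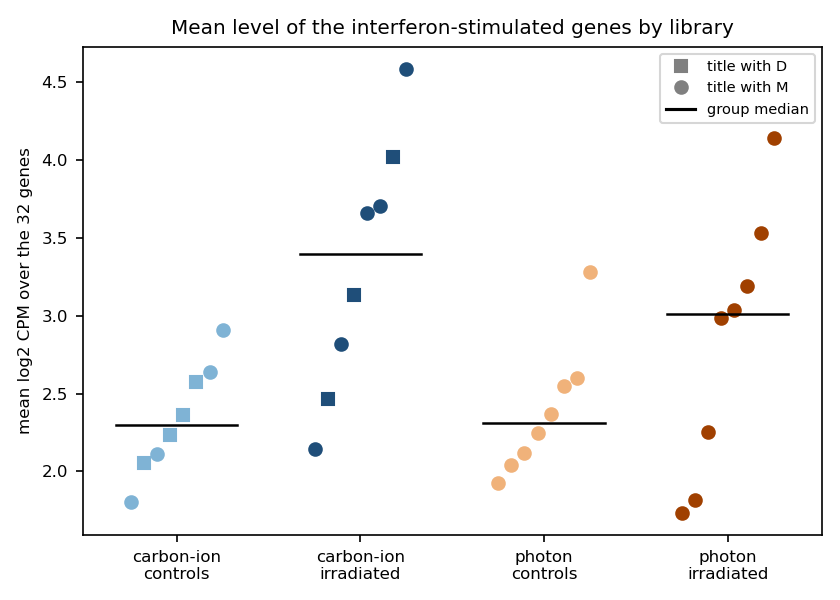
Mean log2 CPM over the 32 genes in each library, by group; squares are libraries with D titles, circles those with M titles, and lines are group medians. Irradiated libraries run from 1.73 to 4.58, reach above all controls in both arms and overlap them at the low end.

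Within the carbon-ion arm, D-titled libraries ran from 2.05 to 2.57 in the controls and from 2.46 to 4.02 after irradiation, and M-titled ones from 1.81 to 2.91 and from 2.14 to 4.58. The median log2 fold change of the 32 genes was 1.13 in a fit of the D-titled carbon-ion libraries alone and 1.14 in the M-titled ones. Depth differed between extremes: carbon_treated replicate 8 had 22777950 counts and replicate 7, the lowest of its group in these genes, had 71645903. After photons the lowest libraries, replicates 6 and 1, had 20209708 and 43281501 counts and the highest, replicate 4, had 48229979. The part of depth in these differences was not tested. Macrophage markers moved with part of this pattern: their sum was 873 CPM in carbon_treated replicate 8 and 852 CPM in photon_ctrl replicate 3, the highest of each group, and 346, 311 and 386 CPM in photon_treated replicates 1, 3 and 6, the lowest of theirs. Those 2 libraries also had the highest fibroblast sums of their groups, 20930 and 26771 CPM, and photon_ctrl replicate 3 the highest endothelial, conventional dendritic cell, plasmacytoid dendritic cell and T cell sums of its group, 412, 28.6, 9.08 and 11.7 CPM. Epithelial markers ran the other way in part of the carbon-ion arm: carbon_treated replicates 8 and 1, highest in the 32 genes, had the lowest epithelial sums of their group, 3011 and 3143 CPM, and replicates 7, 2 and 5, lowest in the 32 genes, had 5300, 5032 and 5186 CPM. Among the controls of that arm, replicate 5, highest in the 32 genes at 2.91, had the lowest sum, 3047 CPM, and replicate 8, lowest at 1.81, the highest, 5362 CPM. The photon-irradiated group did not share this order: photon_treated replicates 3 and 1, low in the 32 genes, had its lowest epithelial sums, 2394 and 3055 CPM. Photon_treated replicates 6 and 4, the lowest and the highest in the 32 genes, had 4290 and 3863 CPM. Carbon_treated replicate 4, with a mean of 3.66 over the 32 genes, had the lowest macrophage sum of its group, 471 CPM, and an epithelial sum of 5053 CPM. The part of these cells was not tested.

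The genes moved together from library to library. With each gene centred on its group means, the 496 pairs had a median Pearson correlation of log2 CPM of 0.77 over the 32 libraries, 413 pairs lay above 0.5 and 22 below 0. These libraries share their depth and makeup across genes, so the values are descriptive. Within a group the median was 0.86 after carbon ions and 0.89 after photons, against 0.46 and 0.62 in the controls. Irf7 and Oasl2 followed the mean of the other 31 genes most closely, at 0.97 and 0.96. Isg20, at -0.07, Oasl1, at 0.32, and Irf9, at 0.50, followed it least, and Isg20 and Oasl1 correlated best with each other, at 0.54.

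**Figure D4:**
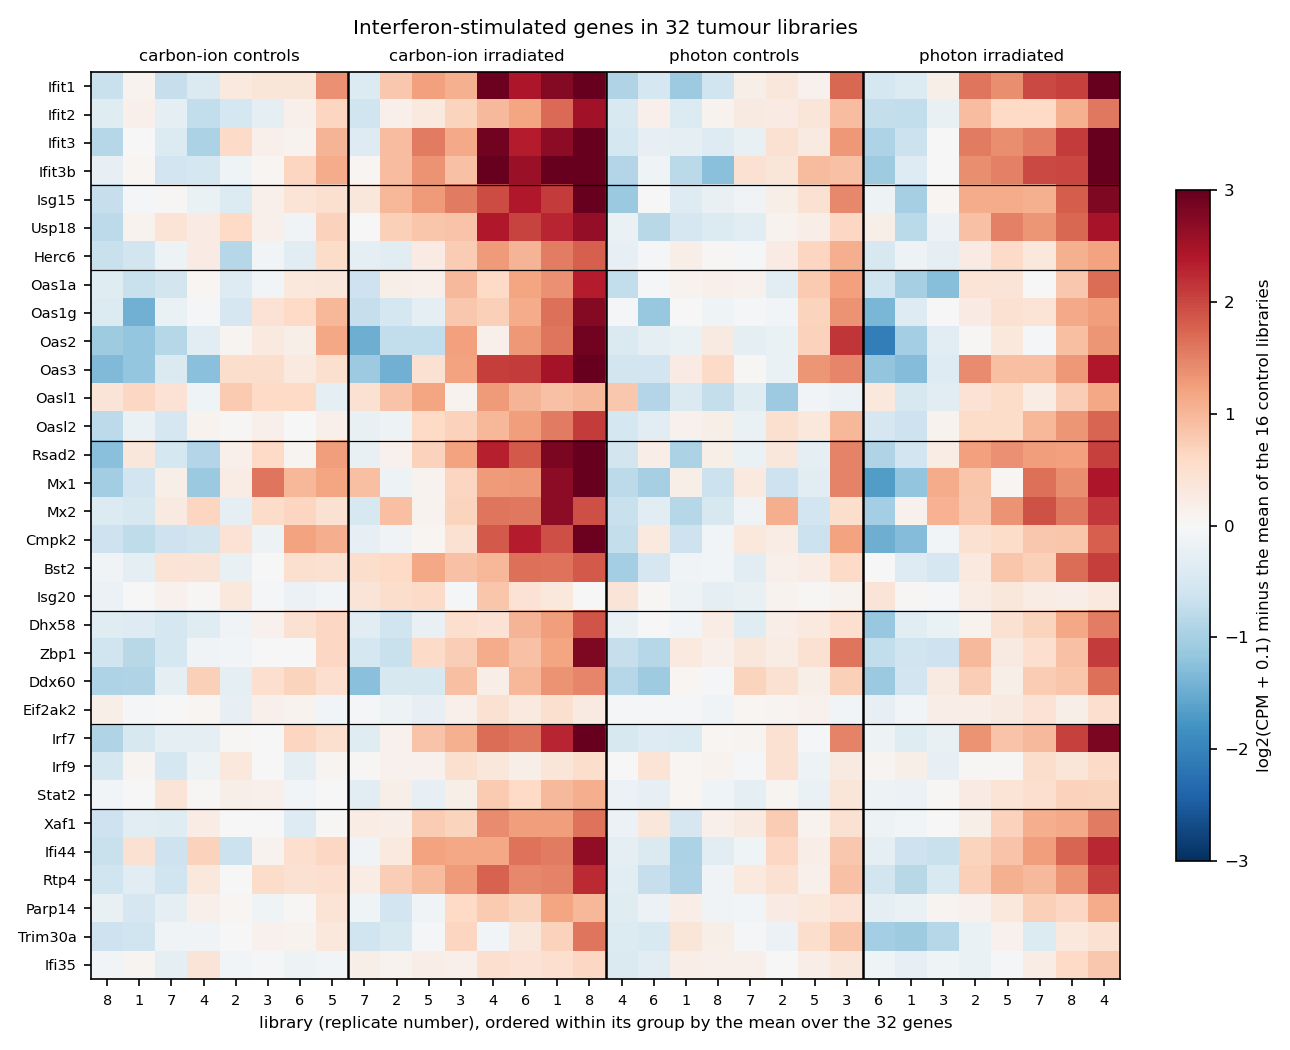
Level of the 32 genes in each library as log2(CPM + 0.1) minus the mean of the 16 control libraries; the colour scale ends at 3 in both directions, rows are grouped by role and libraries are ordered within each group by their mean over the genes. Columns at the right of both irradiated groups are red across most rows, those at their left resemble the controls or are bluer, and Isg20, Irf9 and Eif2ak2 stay pale.

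Ligands were close to the floor of detection. Of 21 interferon genes listed, 3 had no count in any library and 1, Ifnk, passed the filter on low counts, with log2 fold changes of -0.10 ± 0.42 and -0.14 ± 0.43. The 15 alpha and beta interferon genes together had 6 rounded counts in 4 of 8 carbon-ion controls, 50 in 7 of 8 carbon-ion irradiated libraries, 11 in 5 of 8 photon controls and 55 in 8 of 8 photon-irradiated libraries. Both control groups together held 17 counts among 544594534 and both irradiated groups 105 among 573184852. No test was made of these sums, which rest on few counts of near-identical genes. The highest sum, 22, was in carbon_treated replicate 1, whose mean over the 32 genes was 4.02, while photon_treated replicate 1, with 11 counts, had a mean of 1.82 and replicate 4, with 4 counts, one of 4.14. Ifnb1, the beta interferon gene, had 0 counts in the 16 controls, 2 in 1 carbon-ion irradiated library and 2 over 2 photon-irradiated libraries. Ifng, the type II ligand, had 1, 1, 4 and 8 counts over the carbon-ion controls, carbon-ion irradiated, photon control and photon-irradiated groups, with the 8 in 1 library.

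None of 20 genes for receptors and signal transducers passed after either beam or in the mean of both by edgeR, with 2 higher at an unadjusted p under 0.05 after carbon ions and 1 higher and 4 lower after photons. Over all genes the shares at this unadjusted p were 3.68% higher after carbon ions and 8.87% higher and 12.7% lower after photons. Their medians were 0.08 and -0.08. The receptor gene Ifnar1 had log2 fold changes of 0.03 ± 0.06 and -0.11 ± 0.06. Of 20 nucleic acid sensing genes in the table, none passed after carbon ions, where 5 were higher at an unadjusted p under 0.05, and 2 fell after photons, where 2.1% of all genes fell: Sting1, the adaptor of cGAS (-0.46 ± 0.11, adjusted p 0.0203), and Myd88, an adaptor of Toll-like receptors (-0.33 ± 0.10, adjusted p 0.0464). Adar, which edits double-stranded RNA and has an interferon-driven form, rose in the mean of both effects (0.28 ± 0.07, adjusted p 0.0498).

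In a list of 30 genes best known as targets of interferon gamma, the photon effect called 1 higher and 4 lower and the mean of both called 5 higher and 1 lower; carbon ions called 0, with 12 higher and 1 lower at an unadjusted p under 0.05. Over all genes the photon effect called 1.71% higher and 2.1% lower, the mean of both 0.44% higher and 0.332% lower, and carbon ions 0%, with 3.68% higher and 2.07% lower at an unadjusted p under 0.05. Cxcl10, a chemokine for activated T cells that answers to both interferon types, rose after photons (2.0 ± 0.45, edgeR adjusted p 0.0135) and in the mean of both (1.92 ± 0.32, adjusted p 0.00302). It ran from 1.04 to 3.21 (median 1.98) and 1.88 to 16.5 (median 6.27) CPM in the carbon-ion arm and from 0.897 to 2.38 (median 1.24) and 1.13 to 15.8 (median 3.12) CPM in the photon arm, controls first. The guanylate-binding proteins Gbp2 and Gbp3 and the immunity-related GTPases Irgm2 and Igtp were the others that rose in the mean of both, by 0.75 ± 0.15, 0.97 ± 0.20, 0.56 ± 0.14 and 0.70 ± 0.16. The genes that fell after photons were Ciita (-0.73 ± 0.16), the master regulator of MHC class II, with H2-Aa, H2-Ab1 and Cd74, which encode MHC class II chains and their chaperone (-0.60, -0.62 and -0.62). Ciita also fell in the mean of both, by 0.63 ± 0.11.

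A further list of 63 interferon-stimulated genes outside the set, some shared with the lists above, had 61 tested. After carbon ions 58 of the 61 were positive, against 51.5% of all genes, with a median of 0.37. By edgeR 0 passed, where 0% of all genes did, and 34 had an unadjusted p under 0.05, all higher, against 3.68% of all genes. After photons 37 were positive, against 49.9% of all genes, with a median of 0.04. At an unadjusted p under 0.05, 9 were higher and 4 lower after photons, against 8.87% and 12.7% of all genes. Of the 61, Cxcl10 passed after photons, against 1.71% of all genes called higher. In the mean of both Cxcl10, Gbp3, Ifit1bl1 and Ifi47 rose, the last 2 by 1.79 ± 0.43 and 0.40 ± 0.09, against 0.44% of all genes. The medians of the 32 genes were 1.18 and 0.45, and no test of that difference was made.

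**Figure D5:**
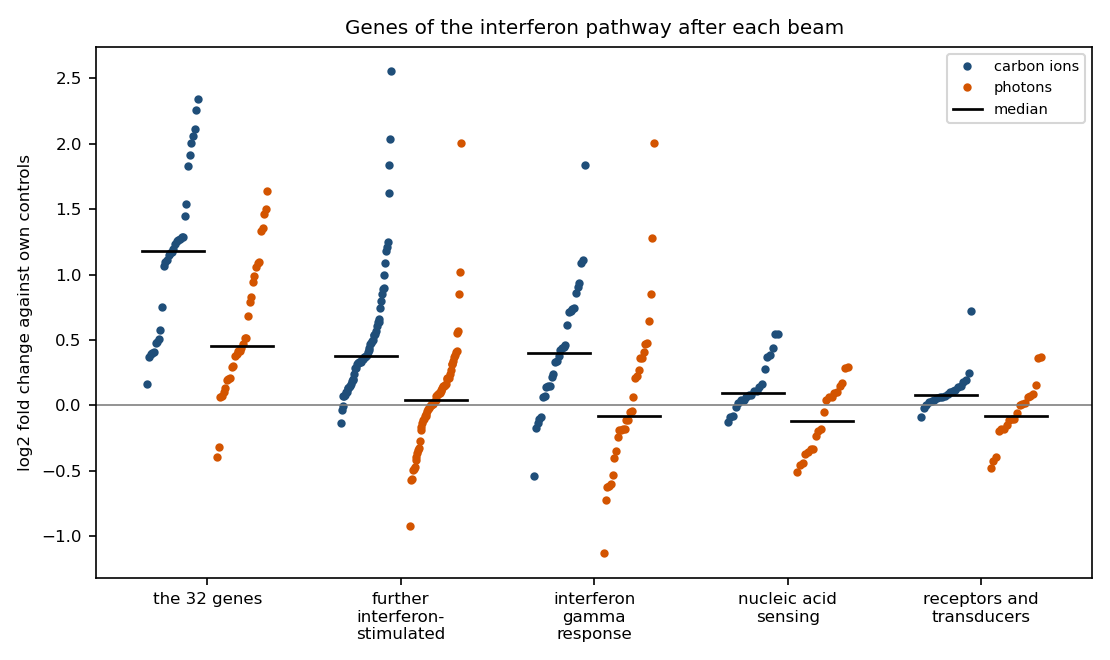
Log2 fold change after carbon ions and after photons, each against the untreated tumours of its arm, for the 32 genes and 4 pathway lists; points are genes ordered by value and lines are medians. The medians of the 32 genes are 1.18 and 0.45, and those of the receptors and transducers are 0.08 and -0.08.

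Markers of other cells were read beside these results. After photons the sums of 6 conventional dendritic cell markers (median 18.9 CPM in the controls, 12.4 after photons), 7 macrophage markers (628 and 416 CPM), 6 neutrophil markers (43.2 and 23.1 CPM) and 7 T cell markers (8.90 and 5.41 CPM) had lower medians, and 2 of 6, 2 of 7, 3 of 5 tested and 1 of 6 tested genes fell by edgeR, while 1 T cell gene rose; over all genes 2.1% fell and 1.71% rose. Sums of 7 fibroblast markers (15760 and 11509 CPM) and 5 endothelial markers (225 and 163 CPM) also had lower medians after photons, with 1 gene of each list called lower. The 6 natural killer cell markers had medians of 2.57 and 3.49 CPM, and none passed. In the carbon-ion arm the corresponding medians were 15.99 and 12.9, 571 and 602, 40.4 and 37.7, and 7.14 and 7.02 CPM, with 10209 and 9706 for fibroblast, 176 and 181 for endothelial and 3.67 and 2.90 for natural killer cell markers. No marker gene passed there, where 0% of all genes passed. At an unadjusted p under 0.05, 2 conventional dendritic cell markers and 1 fibroblast marker were lower after carbon ions, against 2.07% of all genes. In the other direction, 1 macrophage and 1 neutrophil marker were higher, against 3.68%. The 6 plasmacytoid dendritic cell markers, from the cells that make most alpha interferon, summed to between 1.49 and 9.58 CPM over all libraries, with medians of 5.36 in the photon controls, 3.71 after photons, 3.83 in the carbon-ion controls and 3.87 after carbon ions, and none of the 6 was at 0 throughout a group. Skeletal muscle markers had medians of 580 CPM in the photon controls and 6.34 after photons, and no muscle gene passed by edgeR, with 6 of 6 lower at an unadjusted p under 0.05, against 12.7% of all genes. The plasmacytoid dendritic cell list holds Cox6a2, which skeletal muscle also expresses, so its sum need not follow these cells alone. In the carbon-ion arm its highest sums, 7.15 CPM in the controls and 9.58 after irradiation, were in the libraries with the most muscle marker CPM, 2226 and 2961. In the photon arm its highest sums, 9.08 and 5.42 CPM, were in libraries with 8.08 and 3.52 CPM of muscle markers. Epithelial markers had 0 of 7 genes past the threshold after either beam. The part of these cell types in the results on the 32 genes was not tested.

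Among 12266 other genes of sufficient level (mean log2 CPM of at least 2), those whose log2 CPM, centred on the group means, followed the mean of the 32 most closely over the 32 libraries included Trim30d (Pearson r of 0.93), Iigp1 (0.92), Gvin1 (0.92), Gbp7, Ifi203, Igtp (0.91 each), Tgtp2, Ube2l6 and Slfn8 (0.88 each). Of these, all but Gvin1 and Tgtp2 were on the pathway lists above, and the median over all genes compared was -0.08. Iigp1, Igtp, Gvin1 and Tgtp2 encode GTPases of the interferon-inducible families. Igtp rose in the mean of both effects, and the others did not pass, among them Trim30d at 0.80 ± 0.28 after carbon ions and -0.27 ± 0.28 after photons. The most opposed genes were Dcun1d4 (-0.72), Arhgap18 (-0.72), Zfp59 (-0.71), Gdpd1 (-0.69) and Rundc3b (-0.68). Of these, Dcun1d4 rose after photons (0.41 ± 0.10, edgeR adjusted p 0.0253), where 1.71% of all genes were called higher. The rest did not pass after either beam or in the mean of both.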

How the data were processed

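Bulk RNA-seq was read from 32 tumour libraries, 8 in each of 4 groups taken from the labels. Per the labels' protocols, RNA came from tissue kept in RNAlater and libraries were made with a stranded mRNA kit. Per the submitters' processing notes, FastQC 0.12.0, Trimmomatic 0.32 and RSEM 1.3.3 were used with build mm10; the annotation and the use of strand in counting are not given in the sources used here. The authors deposited estimated counts per gene. None of the 853648 values above 0 was whole, so a scaling step beyond RSEM's own output may lie behind them, and the values were rounded for testing, which moved library totals by at most 0.00403%. Whole counts had been foreseen with rounding of estimated ones.

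Counts were tested with edgeR 4.0.16 in R 4.3.3: genes were filtered with a minimum count of 10, library totals were scaled with TMM (trimmed mean of M values), 1 coefficient was fitted per group over all 32 libraries, and quasi-likelihood tests were adjusted by Benjamini-Hochberg over the 20474 genes tested. The standard error was the log2 fold change divided by the square root of the F statistic. Log2 CPM values used a prior count of 2. The procedure was tested on simulated counts, drawn independently for each gene and library, with changes placed in carbon_treated alone. Such counts lack the shared movement of the 32 genes, so that run cannot show how the tests behave under it. The exact day of each library was not used here. The members and lists were chosen with earlier results of these data known. In each role group, full values were given for the members with the smallest and largest unadjusted p and for those called. Alternatives were DESeq2 1.42.0, other scalings, no filter, summed near-identical copies, M-titled libraries, title letter as a covariate, each arm fitted alone and each library left out; fits of D-titled or M-titled carbon-ion libraries alone were added after seeing the data. Locations came from GENCODE M21, in which 49130 symbols of the table were found, and promoters from RefSeq. Results on 1 gene of the pathway lists are not reported here.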

Additional observations from a re-analysis of the deposited data

Results flagged for a closer look

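In the photon controls, replicate 3 had 17.2 CPM of Oas2 and the next highest library 6.21 CPM, and on the scale of log2 CPM its gap to the others took 0.563 of the range of the 8 libraries, above the critical value of 0.526. It was the only such value among the 132 sets of 8 libraries looked at on that scale, and chance flags about 5% of such sets. The same library had the highest mean over the 32 genes among the controls of both arms.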

How the results depend on the processing

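Under the alternatives other than leaving 1 library out, the median log2 fold change of the 32 genes ranged from 1.13 to 1.19 after carbon ions, 0.45 to 0.49 after photons, 0.81 to 0.88 for the mean of both, 0.53 to 0.65 for the difference, -0.095 to 0.00085 for the controls and 0.46 to 0.65 for the irradiated groups. With 1 library left out it ranged from 0.90 to 1.31 after carbon ions, 0.25 to 0.65 after photons, 0.68 to 0.90 for the mean of both, 0.29 to 0.86 for the difference, -0.25 to 0.08 for the controls and 0.24 to 0.78 for the irradiated groups.

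After carbon ions, DESeq2 called 5 members where edgeR called 0, and with 1 library left out the count was 0 to 1. After photons the count of 1 became 6 with DESeq2 and 0 both without the filter on low counts and with the M-titled libraries alone; with 1 library left out it ran from 0 (the 10 libraries named beside Usp18) to 3 (photon_ctrl replicate 2), and was 2 without carbon_treated replicate 1 or 7, photon_ctrl replicate 4 or photon_treated replicate 1, 3 or 6. For the mean of both effects the count of 12 became 0 with the M-titled libraries alone, which drop 7 carbon-ion libraries, 18 with DESeq2, and 8 to 15 with 1 library left out. It was 10 both without the filter on low counts and with the title letter as a covariate, each time without Rsad2 and Ifi44. For the controls it was 1 with DESeq2 and 0 to 1 with 1 library left out. For the difference of the effects and for the irradiated groups it was 0 in edgeR, in DESeq2 and in every other alternative run, and 5 and 4 members had an unadjusted p under 0.05 in edgeR.

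With 1 library left out, Herc6 after photons ranged from -0.016 to 0.30, Oas2 after photons from -0.59 to 0.22 and Trim30a in the mean of both from -0.081 to 0.12; the cause was not tested. Under the alternatives other than leaving 1 library out, 515 single-gene results of the members with full values kept their direction and side of the threshold. Of the rest, 14 moved past it and 18 fell short of it. No paired analysis was possible because the replicate numbers follow accession order and the labels link no libraries across groups.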
